A study of Mus musculus with 6 samples.

Results

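Peritoneal macrophages that had received LPS and then ATP (Model) were compared with macrophages that received muscone between the LPS and the ATP (MUS), over all genes with a mean of at least 1 FPKM (fragments per kilobase of gene, scaled to the depth of the library) in the 4 libraries of these groups. This rule kept 9547 of the 54532 genes in the deposited table. The cells were wild-type, thioglycollate-elicited macrophages of C57BL/6J mice, which are recruited inflammatory cells. Model cells had 500 ng/mL LPS for 5.5 h and then 2 mM ATP for 0.5 h. MUS cells had the same, with 50 μM muscone added 5 h after the LPS, so that muscone was present for 0.5 h before the ATP and through it. Control cells received none of these agents. Each group had 2 mRNA sequencing libraries at that single time, and nothing in the sources read says whether the 2 came from separate animals or cultures, so p-values measure only the spread between libraries. A group with muscone but no LPS or ATP was not analysed here.

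LPS is sensed by TLR4, which switches on NF-κB, MAP kinases and interferon regulatory factors and so induces cytokines, their feedback inhibitors and the pro-form of IL-1β. Extracellular ATP then opens the P2X7 channel, and the loss of potassium that follows lets NLRP3 assemble with ASC and caspase-1 into an inflammasome, which matures IL-1β and cuts gasdermin D. Muscone is the macrocyclic ketone that gives musk its scent. Because it was added late, the comparison asks which transcripts differed at the end of an LPS response that had run for most of its course without the compound.

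No gene passed the study's threshold for differentially expressed genes (DEGs), an adjusted p of at most 0.05 with an absolute log2 fold change over 1: 0 of 9547, or 0%, in limma's moderated test on log2(FPKM + 1) with Benjamini-Hochberg adjustment. The smallest adjusted p was 0.186, so every gene named below is described by its values and none passed that threshold. Values after ± are standard errors (SE) of the log2 fold change of FPKM + 1, which understates the change of genes at low FPKM. In the 6-library fit, SEs and p-values pool the spread within all 3 groups. Where the 2 Control libraries disagreed, they can be large though the Model and MUS replicates are close. Summed FPKM in Control was 128 and 442 for the cytokine list below and 526 and 2601 for the chemokine list. At an unadjusted p under 0.05 the same limma test gave 831 genes where 477.35 would be expected by chance, 559 of them lower in MUS (5.86% of the genes tested) and 272 higher (2.85%). Without Model replicate 1 these shares were 3.36% and 2.3%, and after correction for GC content 4.3% and 3.17%. Leaving out MUS replicate 1 gave 136 lower and 99 higher genes, and leaving out Model replicate 2 gave 926 and 951, so the excess of lower genes was absent without that library. In sign alone, 48.2% of all genes were lower and 51.8% higher. voom on fragments recovered from the FPKM values also gave 0 DEGs, with 493 genes lower and 208 higher at an unadjusted p under 0.05. With the replicate number as a block, limma gave 4 DEGs (0.0419%) over all 6 libraries and 28 (0.293%) over the 4 libraries alone. Those 28 were 15 lower and 13 higher genes, of which 6 were protein-coding: Vegfa, Rpl7a, Tuba1a, Tnfsf9, Lars2 and mt-Nd6. Of the rest, 17 were non-coding genes with at most 50 fragments in every one of the 4 libraries. The block fit of the 4 libraries leaves little spread within a gene to estimate, so its p-values lean on spread pooled across genes. Leaving out Model replicate 2 gave 46 DEGs (0.482%). Below, "lower" and "higher" mean lower or higher in MUS, a gene "at p under 0.05" is one at an unadjusted p under 0.05, and the libraries of a gene "do not overlap" when both MUS values lie on one side of both Model values, as they did for 1974 genes downwards (20.7%) and 2054 upwards (21.5%). For any one gene, exact permutation of 2 Model and 2 MUS libraries has a smallest possible p of 0.333.

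The Model libraries held 15529580 and 15526321 fragments and the MUS libraries 16222724 and 16481372. Model replicate 1 stood apart: 24906 genes had at least 1 fragment in it, against 17406 to 18174 in the other 3, and the repeat-derived gene Gm10800 reached 2195 FPKM there and 2.05 in Model replicate 2. Its values correlated less with its replicate (r = 0.939 across genes) than the 2 MUS libraries did with each other (0.978) or Model replicate 2 did with MUS replicate 2 (0.975). Calls at p under 0.05 that were lost without it are named with the results, as are those lost after GC correction alone. Of the genes given below with their values, those at p under 0.05 in the same direction with all 6 libraries, after GC correction, without Model replicate 1 and without MUS replicate 1 were Vegfa, Nr4a1, Odc1, Rpl7a and Gstp1 upwards and Socs1, Txnip, Dusp2, Cebpd, Jund, Ier2, mt-Nd6, mt-Co2, CT010467.1, Lars2, Gm26917, Gm23935, Gpx4, Pink1, Pgls, Cdkn2d, Tuba1a, Rps14, Scand1, Rabac1, Ube2s, Bad and Hspbp1 downwards. Cd80, Egr2, Nfil3, Manf, Slc30a1, Crtc2, Cxcl11, Tspo, Tuba1c, mt-Nd1, mt-Nd2 and mt-Cytb lost the call in 1 of these 3 alternatives, without MUS replicate 1. Macrophage genes were high in all 4 libraries, with Lyz2 at 11369.9, 7275, 10904 and 9016 FPKM and Adgre1, which encodes F4/80, at 241, 299.99, 341 and 297, naming the Model libraries first.

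Vegfa and Rpl7a had the highest fold changes upwards among protein-coding genes (9.51-fold and 10.2-fold in FPKM, 2.88 for both on the log2 scale of FPKM + 1). Vegfa leads a small set of genes known as targets of cAMP and CREB signalling. Vegfa, the angiogenic growth factor, had 3.09 and 2.95 FPKM in Model and 30.9 and 26.6 in MUS. The MUS mean was 9.51-fold the Model mean, on 1852 to 2001 fragments per MUS library (log2 fold change 2.88 ± 0.42 (SE), adjusted p = 0.233). With the replicate block over the 4 libraries its adjusted p was 0.00575. The untreated Control libraries had 24.7 and 9.03, so the Model libraries were the low ones in the series and the MUS libraries were at or above the higher Control library. Nr4a1, an orphan nuclear receptor induced within minutes of cAMP signals, had 1.49 and 3.13 FPKM in Model and 10.9 and 8.33 in MUS (4.16-fold, log2 fold change 1.72 ± 0.30, adjusted p = 0.238), and 1.65 and 1.06 in Control. Its relative Nr4a3 went from 4.19 and 4.50 to 8.17 and 6.42 (1.68-fold, log2 fold change 0.63 ± 0.23, adjusted p = 0.491). Nr4a2 was below the filter.

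Odc1, which encodes ornithine decarboxylase, the first enzyme of polyamine synthesis, had 30.8 and 30.3 FPKM in Model and 93.7 and 73.6 in MUS (2.74-fold, log2 fold change 1.41 ± 0.27, adjusted p = 0.263). A share of 24.3% of its 50-base stretches also occurs in other annotated genes, mostly the pseudogene Gm7993. Nfil3, a basic leucine zipper repressor, had 34.1 and 25.8 in Model and 80.3 and 65.1 in MUS (2.43-fold, log2 fold change 1.26 ± 0.36, adjusted p = 0.450). All 5 of these genes were separated without overlap. Over the list of cAMP and CREB-responsive genes, 27 of 34 were tested, 20 were higher and 7 lower, and 5 were higher and 1 lower at p under 0.05. The one lower gene was Crtc2, a CREB coactivator (6.33 and 6.61 against 3.30 and 4.23 FPKM, log2 fold change -0.66 ± 0.20, adjusted p = 0.451). Of all genes tested, 51.8% were higher, and 2.85% were higher at p under 0.05. Like the others, this list was drawn up with earlier results of these data known, so setting it beside all genes is only a description. The median log2 fold change of the list was 0.21, against 0.02 for all genes tested. It was 0.22 after correction for GC content, 0.18 without Model replicate 1 and 0.22 without MUS replicate 1. Nr4a3 was not at p under 0.05 without Model replicate 1 (log2 fold change 0.59). Other classical members differed little beside their spread: Crem had 3.81 and 3.28 against 4.31 and 4.19 FPKM (log2 fold change 0.21 ± 0.19, adjusted p = 0.812), Dusp1 214 and 196 against 299 and 255 (log2 fold change 0.43 ± 0.30, adjusted p = 0.734) and Pde4b 50.1 and 57.5 against 85.5 and 65.7 (log2 fold change 0.47 ± 0.73, adjusted p = 0.897). The adenosine receptors that feed this pathway had lower values in both MUS libraries, though not at p under 0.05. Adora2b had 112 and 76.4 FPKM in Model and 39.7 and 45.4 in MUS (log2 fold change -1.11 ± 0.49, adjusted p = 0.601), and Adora2a 44.9 and 47.1 against 22.7 and 30.2 (log2 fold change -0.79 ± 0.76, adjusted p = 0.818).

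The 5 promoters are those of the list members that were higher at p under 0.05. Of the 27 members tested, 11 were separated upwards without overlap, and the others among these are not shown. CREB is known to bind the palindrome TGACGTCA and its core TGACG. Each line gives the 250 bases before the RefSeq start (build GRCm38.p6) closest to the 5′ end of the gene in the table, 5′ to 3′ on the gene's strand, with cores of either orientation in capitals (TGACG, or CGTCA on the other strand).
Nr4a1 (chr15:101266596-101266845, plus strand): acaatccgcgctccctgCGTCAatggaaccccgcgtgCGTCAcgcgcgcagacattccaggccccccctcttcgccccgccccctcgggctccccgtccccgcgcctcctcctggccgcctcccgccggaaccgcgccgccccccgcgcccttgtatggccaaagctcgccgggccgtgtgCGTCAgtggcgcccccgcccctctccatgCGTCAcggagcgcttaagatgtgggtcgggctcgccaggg
Nr4a3 (chr4:48045055-48045304, plus strand): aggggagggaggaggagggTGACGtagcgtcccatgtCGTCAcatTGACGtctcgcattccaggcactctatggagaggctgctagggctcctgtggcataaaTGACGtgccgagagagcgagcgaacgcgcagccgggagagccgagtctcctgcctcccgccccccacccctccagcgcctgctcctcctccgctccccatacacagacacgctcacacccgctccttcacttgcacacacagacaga
Odc1 (chr12:17544623-17544872, plus strand): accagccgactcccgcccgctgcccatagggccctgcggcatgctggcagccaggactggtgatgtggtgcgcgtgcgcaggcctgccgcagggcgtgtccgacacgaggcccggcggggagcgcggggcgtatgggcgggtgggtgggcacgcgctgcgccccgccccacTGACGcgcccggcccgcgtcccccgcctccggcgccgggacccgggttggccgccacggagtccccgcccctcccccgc
Nfil3 (chr13:52981040-52981289, minus strand): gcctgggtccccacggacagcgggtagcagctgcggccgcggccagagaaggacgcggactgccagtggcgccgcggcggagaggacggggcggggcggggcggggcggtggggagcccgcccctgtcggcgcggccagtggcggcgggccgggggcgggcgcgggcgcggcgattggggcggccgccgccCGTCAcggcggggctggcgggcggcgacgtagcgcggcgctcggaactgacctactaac
Vegfa (chr17:46032378-46032627, minus strand): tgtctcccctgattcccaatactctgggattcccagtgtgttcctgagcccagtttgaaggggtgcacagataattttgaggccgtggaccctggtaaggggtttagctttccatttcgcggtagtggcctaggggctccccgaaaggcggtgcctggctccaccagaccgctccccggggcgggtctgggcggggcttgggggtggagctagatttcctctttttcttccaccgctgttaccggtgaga
Nr4a1 and Nr4a3 hold 4 cores each, Odc1 and Nfil3 1 each, and the Vegfa window holds none. The full palindrome is in none of the 5. Of 6771 genes tested that matched a RefSeq promoter, 29.6% hold at least 1 core in the same window and 3.04% the palindrome. A match here is a description of the letters and not of binding.

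Other immediate early genes split in 2 directions. Of 49 listed AP-1, EGR, IER, KLF and NR4A genes, 44 were tested, 7 were lower and 5 higher at p under 0.05, and the median log2 fold change was -0.17 (-0.11 without Model replicate 1, 0.00 after GC correction). Besides Nr4a1, Nr4a3 and Nfil3, the higher genes were Egr2 (44.9 and 42.5 against 96.2 and 72.6 FPKM, log2 fold change 0.92 ± 0.29, adjusted p = 0.451) and Plk2 (164 and 169 against 352 and 271, log2 fold change 0.89 ± 0.34, adjusted p = 0.525), a zinc finger factor and a polo-like kinase. Fos had 7.95 and 12.7 FPKM in Model and 20.2 and 16.6 in MUS (log2 fold change 0.81 ± 0.36, adjusted p = 0.608). The Jun family members Jund and Junb were lower. Jund had 28.1 and 13.5 in Model and 3.73 and 6.57 in MUS (4.04-fold lower, log2 fold change -1.78 ± 0.40, adjusted p = 0.350), and Junb 106 and 92.98 against 39.8 and 58.4 (2.02-fold lower, log2 fold change -1.02 ± 0.33, adjusted p = 0.456). Ier2 had 183 and 136 against 64.6 and 65.6 (2.45-fold lower, log2 fold change -1.26 ± 0.30, adjusted p = 0.361), so the MUS libraries were lower but still above the 15.1 and 18.6 of Control. Cebpd, an acute-phase transcription factor, was at 5.16 and 3.27 in Model and 0.689 and 1.04 in MUS (4.89-fold lower, log2 fold change -1.47 ± 0.36, adjusted p = 0.368). It overlaps Spidr, and as no strand setting is stated the reads of overlapping genes cannot be told apart. Batf3, Plk3 and Klf3 completed the lower set, at log2 fold changes of -0.97, -0.53 and -0.60. Jund and Junb have exons of 67.1% and 62.6% GC, and after GC correction their log2 fold changes were -0.95 and -0.45, Junb no longer at p under 0.05, like Batf3 and Plk3. Without Model replicate 1 the list gave 4 lower and 3 higher genes, with Junb, Plk3, Klf3, Plk2 and Nr4a3 no longer at that level.

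Some feedback inhibitors of cytokine and MAP kinase signalling were lower. Socs1, which blocks JAK kinases, had 11.99 and 9.90 FPKM in Model and 2.46 and 3.13 in MUS (3.92-fold lower, log2 fold change -1.65 ± 0.25 (SE), adjusted p = 0.233). Control was at 0.421 and 1.05. Socs3, the inhibitor of gp130 cytokine receptors, had 379.8 and 374 in Model and 102 and 169 in MUS (2.77-fold lower, log2 fold change -1.51 ± 0.58, adjusted p = 0.519). Its call was lost after GC correction (log2 fold change -1.14) and without Model replicate 1 (-1.50). Of the 17 listed SOCS and related inhibitors these 2 were lower at p under 0.05 and none was higher, and the list's median log2 fold change was -0.05. Cish and Socs2 were within the list and had 5.09 and 6.97 against 3.999 and 5.26 FPKM (log2 fold change -0.32 ± 0.24, adjusted p = 0.761) and 1.23 and 0.833 against 1.08 and 0.853 (log2 fold change -0.04 ± 0.27, adjusted p = 0.981). Dusp2, a nuclear phosphatase of ERK and p38, had 41.9 and 34.1 in Model and 12.9 and 14.3 in MUS (2.80-fold lower, log2 fold change -1.41 ± 0.24, adjusted p = 0.238). Dusp7 and Spry2 were lower too (log2 fold changes -0.70 ± 0.20 and -0.64 ± 0.23), while Dusp5, a phosphatase of nuclear ERK, was higher (7.48 and 7.78 against 15.8 and 10.1, log2 fold change 0.66 ± 0.25, adjusted p = 0.519). Of 18 such genes tested, 3 were lower and 1 higher at p under 0.05. Dusp7 lost its call after GC correction (-0.38), and Spry2 and Dusp5 lost theirs without Model replicate 1 (-0.39 and 0.64).

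**Figure D1:**
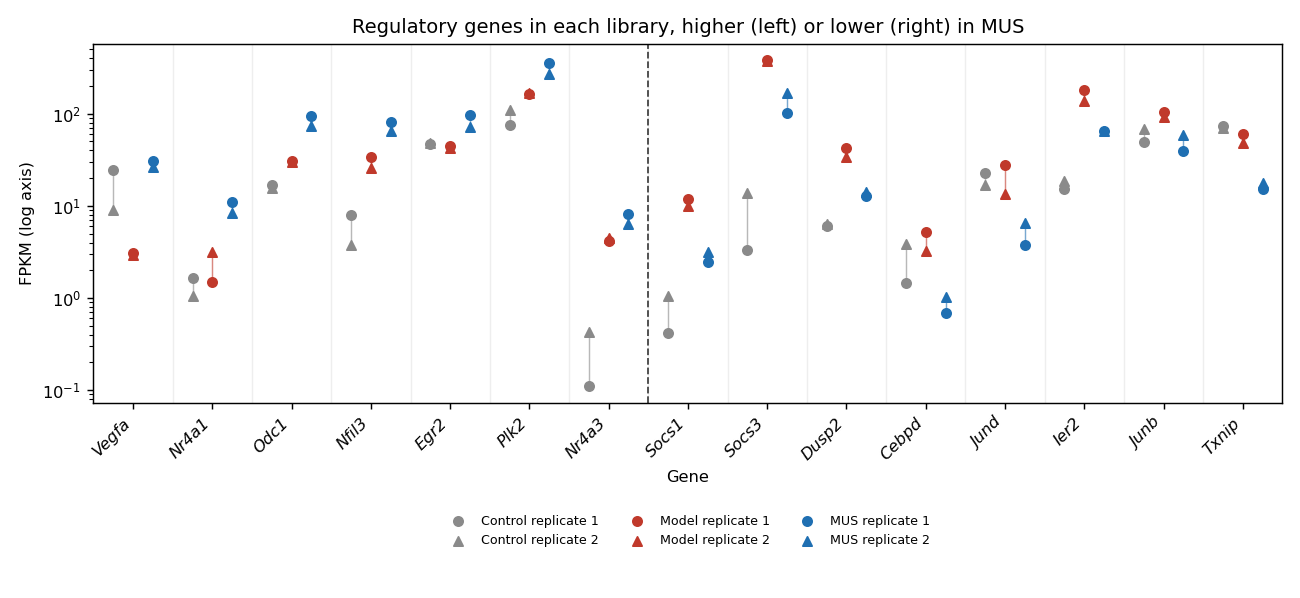
FPKM in each library on a log axis for 15 regulatory genes, 7 higher in MUS on the left of the dashed line and 8 lower on the right; circles are replicate 1, triangles replicate 2, and a thin line joins the 2 replicates of a group. In all 15 genes both MUS libraries lie on one side of both Model libraries, and the MUS values of Vegfa, at 30.9 and 26.6, are far above the Model values of 3.09 and 2.95.

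The inflammasome genes were mostly level. Nlrp3 itself had 167 and 205 FPKM in Model and 309 and 271 in MUS, higher in both MUS libraries. Its log2 fold change, 0.64, was below its SE of 0.78, which includes the spread of the Control libraries. Il1b, which encodes the cytokine that the inflammasome matures, had 7646 and 4750.02 in Model and 5832 and 5003 in MUS, so its groups overlapped. Casp1 overlapped as well (300.04 and 211 against 285 and 226), and so did Il18 (109 and 68.9 against 115 and 85.4). The log2 fold change of Il1b was -0.16 ± 1.27, with an SE taken over all 6 libraries, of which the Control libraries had 0.550 and 34.2 FPKM. Gsdmd, the pore-forming gasdermin, had 77.8 and 63.7 against 39.5 and 51.9 (log2 fold change -0.63 ± 0.35, adjusted p = 0.689).

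Of the 19 genes of this list that were tested, 2 were lower at p under 0.05. Txnip, the thioredoxin-interacting protein that is also known as an NLRP3 partner, had 59.6 and 47.7 FPKM in Model and 15.04 and 17.7 in MUS (3.28-fold lower, log2 fold change -1.65 ± 0.27 (SE), adjusted p = 0.238). With 72.9 and 69.2 in Control, the MUS libraries were the lowest of the series. The difference was -1.72 after GC correction and -1.49 without Model replicate 1. Arrdc4, its closest arrestin-like relative, looked at after the Txnip values were seen, had 34.8 and 31.5 against 34.3 and 32.1 FPKM (log2 fold change 0.00). Ninj1, which ruptures the plasma membrane in lytic death, had 97.7 and 73.5 in Model and 40.4 and 56.7 in MUS (log2 fold change -0.81 ± 0.33, adjusted p = 0.551), but the log2 fold change was -0.40 after GC correction and -0.61 without Model replicate 1, at p under 0.05 in neither.

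Among 25 cytokines tested, the 2 subunits of IL-27 were the genes at p under 0.05, both lower. Il27, which encodes the p28 subunit, had 227 and 123 FPKM in Model and 45.9 and 61.7 in MUS (3.26-fold lower, log2 fold change -1.63 ± 0.50, adjusted p = 0.451). Ebi3, which encodes the other subunit, had 12.9 and 9.06 against 3.38 and 6.62 (2.20-fold lower, log2 fold change -1.03 ± 0.34, adjusted p = 0.455). Without Model replicate 1 the log2 fold changes were -1.19 and -0.80, and neither gene was at p under 0.05. Il27 overlaps Apobr. Tnfsf9, the ligand of 4-1BB, had 75.3 and 62.8 in Model and 15.6 and 20.6 in MUS, 3.81-fold lower, with an adjusted p of 0.629 in the 6-library fit and an adjusted p of 0.0491 with the replicate block over the 4 libraries. Tnf had 1510.5 and 1034 against 654 and 701 FPKM (log2 fold change -0.88 ± 1.19, adjusted p = 0.880) and Il6 917 and 454 against 716 and 436 (log2 fold change -0.21 ± 0.48, adjusted p = 0.936). The lipopolysaccharide-induced cytokine Il12b leaned upwards (109 and 100.1 against 148 and 114, log2 fold change 0.32 ± 0.56, adjusted p = 0.917), as did Il10 (22.9 and 13.8 against 24.7 and 20.7, log2 fold change 0.33 ± 0.28, adjusted p = 0.786). The list's median log2 fold change was -0.21, and 0.15 without Model replicate 1.

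**Figure D2:**
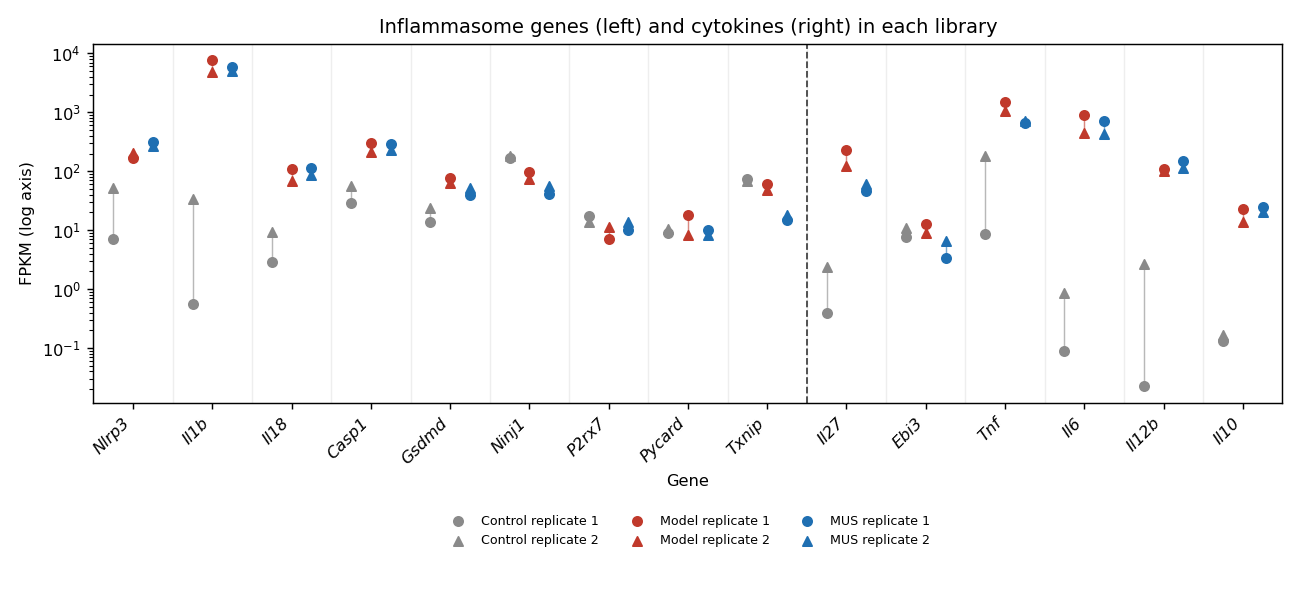
FPKM in each library on a log axis for 9 inflammasome and pyroptosis genes (left of the dashed line) and 6 cytokines (right), with circles for replicate 1 and triangles for replicate 2. Il1b, Casp1, Il18 and Il6 overlap between Model and MUS, whereas Txnip, Il27 and Ebi3 are lower in both MUS libraries.

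Chemokines had the same dependence on 1 library. Of 22 tested, 18 were lower, beside 48.2% of all genes tested. The median log2 fold change was -0.33, but it was 0.05 without Model replicate 1. Ccl24, an eosinophil attractant, and Cxcl11, annotated here as a polymorphic pseudogene, were at p under 0.05. Ccl24 had 14.9 and 7.77 against 6.23 and 5.04 FPKM and Cxcl11 3.59 and 1.99 against 1.33 and 1.10. In both, Model replicate 1 was the highest of the 4 libraries, and without it Ccl24 was not at p under 0.05 (-0.41). Ccl5 had 1946 and 1281 against 701 and 975 (log2 fold change -0.93 ± 1.26, adjusted p = 0.880).

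Upstream of these, none of 27 TLR4 pathway genes was at p under 0.05 in limma's test. Its spread includes the Control libraries, in which the list summed to 540 and 1166 FPKM. Of 26 NF-κB subunits and IκB proteins, 2 were: Rela, the transactivating subunit, with 98.1 and 68.03 FPKM in Model and 28.01 and 41.7 in MUS (2.38-fold lower, log2 fold change -1.23 ± 0.39, adjusted p = 0.451), and Bcl3, an atypical IκB, with 26.6 and 27.1 against 7.83 and 13.6 (2.51-fold lower, log2 fold change -1.30 ± 0.51, adjusted p = 0.531). Their exons are 59.4% and 62.6% GC, and after GC correction the log2 fold changes were -0.83 and -0.72, neither gene then at p under 0.05. Neither was without Model replicate 1 (-0.97 and -1.31). The list's median log2 fold change was -0.11.

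Interferon-stimulated genes differed little, mostly upwards. Of 57 tested, 39 were higher and 18 lower, and 20 were separated upwards without overlap. Of all genes tested, 51.8% were higher and 21.5% separated upwards. The median log2 fold change was 0.17 (0.15 without Model replicate 1), but none was higher at p under 0.05. The spread in that test includes the Control libraries, in which these genes summed to 567 and 1555 FPKM. Irf7, for instance, had 152 and 157 FPKM in Model, 230 and 238 in MUS and 3.08 and 8.07 in Control (log2 fold change 0.60 ± 0.41, adjusted p = 0.729). The 3 that were lower at p under 0.05 were Ifi27, a mitochondrial protein (117 and 58.998 against 27.02 and 34.7 FPKM, log2 fold change -1.42 ± 0.43, adjusted p = 0.451), and the antiviral membrane proteins Ifitm2 (96.7 and 64.7 against 28.99 and 40.6, log2 fold change -1.18 ± 0.39, adjusted p = 0.456) and Ifitm3 (1993 and 1306 against 630.2 and 853, log2 fold change -1.14 ± 0.42, adjusted p = 0.503). Ube2l6, the conjugating enzyme for ISG15, was also lower (282 and 152 against 60.9 and 92.04, log2 fold change -1.45 ± 0.59, adjusted p = 0.553). Ifit3 had 467 and 407 against 695 and 563 (log2 fold change 0.52 ± 0.89, adjusted p = 0.910). All 4 lower calls rested on Model replicate 1: without it the log2 fold changes were -0.92, -0.90, -0.83 and -1.01, none at p under 0.05.

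Of 25 costimulation and antigen presentation genes, Cd80, the B7 ligand of CD28, was the one higher at p under 0.05, from 10.8 and 11.1 to 21.8 and 17.9 FPKM (1.81-fold, log2 fold change 0.80 ± 0.21, adjusted p = 0.393). The class I molecule H2-T23 and the class II chaperone H2-DMb1 were lower (log2 fold changes -0.87 and -0.74), though neither was without Model replicate 1. The median of the list was -0.42, and -0.10 without Model replicate 1. Among 28 macrophage identity genes, Trem2, a lipid receptor, was lower (97.7 and 61.8 against 25.5 and 37.96, log2 fold change -1.29 ± 0.39, adjusted p = 0.451), as was the adhesion molecule Icam2 (log2 fold change -0.60), and none was higher at that level. Neither call held without Model replicate 1 (log2 fold changes -0.97 and -0.34). In bulk libraries fewer cells of a type and less RNA per cell cannot be told apart.

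The genes of the mitochondrial genome were lower nearly throughout. Of its 13 respiratory chain genes, 11 were tested, 10 were lower, and 7 were lower at p under 0.05, each without overlap. The median log2 fold change was -1.38, and -1.46 after GC correction, -1.36 without Model replicate 1 and -0.96 without MUS replicate 1. Without Model replicate 1, 8 were lower and 1, mt-Co3, was higher at p under 0.05. Mitochondrial genes took 0.352% and 0.497% of all fragments in Model and 0.206% and 0.314% in MUS, against 1.51% and 1.39% in Control. mt-Nd6, a complex I subunit and the only one of these genes on the light strand, had 1217 and 948 FPKM in Model and 87.5 and 255 in MUS (6.33-fold lower, log2 fold change -2.84 ± 0.56, adjusted p = 0.288). It overlaps mt-Nd5. The complex I genes mt-Nd1 (346 and 339 against 98.1 and 176, log2 fold change -1.38 ± 0.39, adjusted p = 0.426) and mt-Nd2 (458 and 468 against 83.5 and 195, log2 fold change -1.85 ± 0.46, adjusted p = 0.368) were lower in the same way, as was mt-Cytb of complex III (287 and 316 against 126 and 161, log2 fold change -1.07 ± 0.34, adjusted p = 0.451). In each of them MUS replicate 1 was the lowest library of the series.

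The cytochrome oxidase subunits did not share one pattern, though mt-Co2 and mt-Co3 had few FPKM beside mt-Co1, and mt-Co3 overlaps mt-Atp6. mt-Co1 had 888 and 1231 FPKM in Model and 816 and 1131 in MUS (log2 fold change -0.12 ± 0.39 (SE)), with overlapping groups, and mt-Co3 had 7.41 and 2.47 against 5.57 and 4.08. mt-Co2 was lower (7.67 and 4.72 against 1.26 and 2.07, log2 fold change -1.42 ± 0.28, adjusted p = 0.288). The values of mt-Co2, mt-Atp6 and mt-Nd4 are uncertain as levels, since 100%, 99.5% and 62.2% of their 50-base stretches also occur in nuclear copies. Such stretches were not counted for mt-Co1, mt-Co3 and mt-Cytb, so their levels may be uncertain in the same way. Of the mitochondrial transfer RNA genes, mt-Tn had 0 fragments in both Model libraries and 8 and 7 in MUS, while mt-Te had 2 and 5 in Model and 0 in both MUS libraries and mt-Tc 4 and 4 against 0 and 0. These counts are so few that single fragments set the fold change. Of 21 nuclear genes for mitochondrial transcription and RNA stability, only the helicase gene Supv3l1 was at p under 0.05, and it was higher (1.67 and 2.63 against 4.32 and 3.59 FPKM, log2 fold change 0.67 ± 0.23, adjusted p = 0.470), but not at that level without Model replicate 1 (0.44). Polrmt, the mitochondrial RNA polymerase, had 1.36 and 2.12 against 0.692 and 0.972 (log2 fold change -0.57 ± 0.24, and -0.11 after GC correction).

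**Figure D3:**
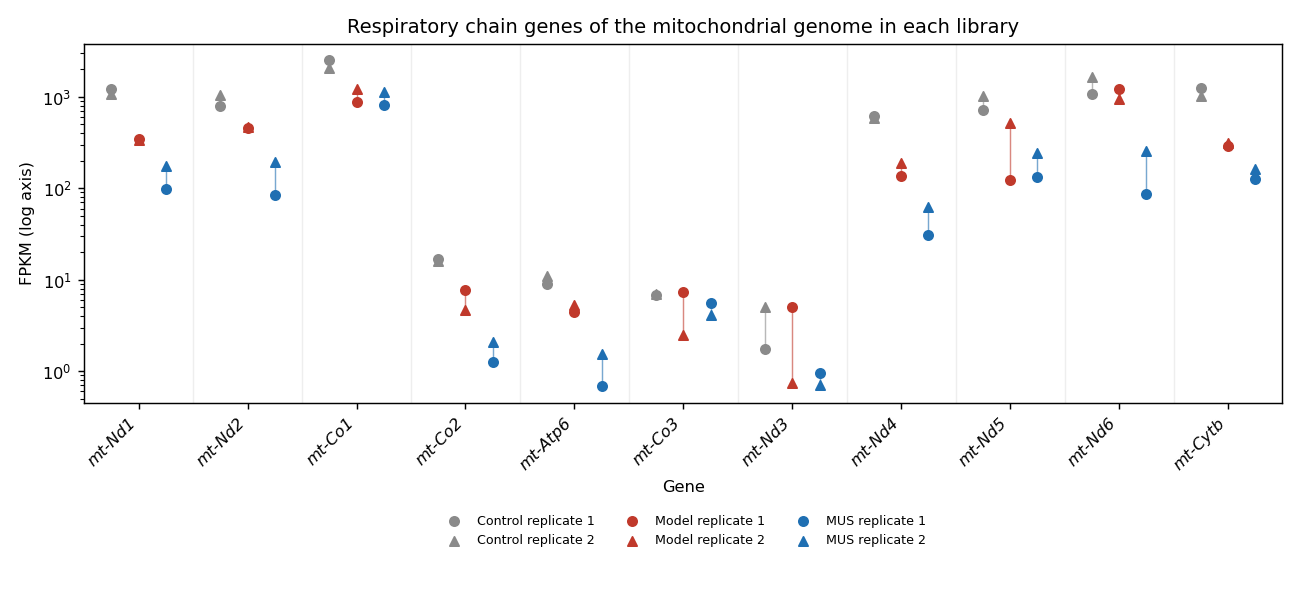
FPKM in each library on a log axis for the 11 tested respiratory chain genes encoded in mitochondrial DNA; circles are replicate 1 and triangles replicate 2. Both MUS libraries lie below both Model libraries in 7 genes, with the widest gap in mt-Nd6, while mt-Co1 and mt-Co3 overlap.

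Ribosomal RNA and satellite-like sequences differed by more. All 10 tested members of that list were lower, 6 at p under 0.05, with a median log2 fold change of -2.38. As a share of all fragments the list made up 0.242% and 0.291% in Model and 0.00936% and 0.0300% in MUS. CT010467.1, an annotated ribosomal RNA, had 273 and 439 FPKM in Model and 13.5 and 50.3 in MUS (11.2-fold lower, log2 fold change -3.67 ± 0.63, adjusted p = 0.238). Lars2, a mitochondrial leucyl-tRNA synthetase gene known to carry ribosomal RNA-like sequence, had 34.4 and 139 against 5.05 and 13.9 (9.16-fold lower, log2 fold change -2.89 ± 0.72, adjusted p = 0.368). Gm26917 and Gm23935 were lower in the same way (7.60-fold and 21.6-fold). All stretches of Gm23935 also occur in other annotated genes, including Gm24270, and it overlaps Zc3h7a. Ribosomal RNA largely lacks poly(A) tails, and the libraries were made from poly(A)-selected RNA.

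Nuclear-encoded subunits of the respiratory chain had a median near 0. Of 75 tested, 7 were lower and none higher at p under 0.05, and the median log2 fold change was -0.06, but 0.34 without Model replicate 1, when 9 were higher and none lower at p under 0.05. The lower genes included Cox6a1 (257 and 121 against 48.2 and 77.3 FPKM, log2 fold change -1.52 ± 0.45, adjusted p = 0.451) and Atp5d (25.8 and 16.2 against 6.52 and 10.6, log2 fold change -1.20 ± 0.35, adjusted p = 0.451). Of 47 mitophagy genes, 4 were lower and 2 higher at p under 0.05. Pink1, the kinase that marks damaged mitochondria, had 6.63 and 4.81 in Model and 1.81 and 1.89 in MUS (3.09-fold lower, log2 fold change -1.22 ± 0.30, adjusted p = 0.368). Tspo, an outer membrane cholesterol-binding protein, had 271 and 155 against 56.2 and 91.6 (2.89-fold lower, log2 fold change -1.50 ± 0.40, adjusted p = 0.393), though it overlaps Mcat. The fission adaptor Fis1 and the ubiquitin ligase Mul1 were lower (log2 fold changes -1.05 and -0.89). Becn1, the autophagy initiator, was higher (5.77 and 6.64 against 10.4 and 9.98, log2 fold change 0.64 ± 0.20, adjusted p = 0.451), and so was Rab7b, a late endosomal GTPase (2.01 and 4.34 against 8.70 and 9.25, log2 fold change 1.32 ± 0.45, adjusted p = 0.468). Pink1 and Tspo were lower at p under 0.05 also without Model replicate 1, while Fis1, Mul1, Becn1 and Rab7b were not at that level.

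The polyamine genes differed at opposing steps. Beside the higher Odc1, Oaz1, the antizyme that sends ornithine decarboxylase to the proteasome, was lower (303 and 143 against 77.5 and 89.1 FPKM, 2.68-fold, log2 fold change -1.31 ± 0.44, adjusted p = 0.463), and without Model replicate 1, where it was highest, the log2 fold change was -0.77 and no longer at p under 0.05. Smox, which oxidises spermine, was higher (7.10 and 8.47 against 11.3 and 11.9, log2 fold change 0.53 ± 0.20, adjusted p = 0.519). In the antioxidant list, 3 of 31 were lower and 1 higher at p under 0.05. Besides Txnip, the lower genes were the glutathione peroxidases Gpx4, which clears lipid peroxides (80.2 and 45.5 against 12.8 and 24.5, log2 fold change -1.71 ± 0.41, adjusted p = 0.368), and Gpx1 (485 and 261 against 142 and 192, log2 fold change -1.10 ± 0.41, adjusted p = 0.503). The glutathione transferase Gstp1 was higher (5.05 and 3.58 against 6.82 and 10.003, log2 fold change 0.82 ± 0.30, adjusted p = 0.494). Of the stretches of Gpx4 and Gstp1, 34.7% and 33.7% also occur in other annotated genes, including Gpx4-ps2 and Gstp2. The NRF2 targets Hmox1 (196 and 198 against 135 and 196, log2 fold change -0.27 ± 0.44, adjusted p = 0.901) and Nqo1 (2.01 and 1.54 against 1.83 and 1.35, log2 fold change -0.10 ± 0.27, adjusted p = 0.951) were not at that level. Smox and Gpx1 lost their calls without Model replicate 1 (0.41 and -0.66), and Gpx1 also lost it after GC correction.

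Of 22 metal-handling genes, 2 were lower and 2 higher at p under 0.05, and 0 lower and 1 higher without Model replicate 1. Mt1, a metallothionein, had 302 and 163 FPKM in Model and 75.7 and 107 in MUS (log2 fold change -1.29 ± 0.40, adjusted p = 0.451), and Ftl1, the ferritin light chain, 3603 and 2049 against 1017 and 1496 (log2 fold change -1.14 ± 0.44, adjusted p = 0.526), with 50.9% of its stretches shared with pseudogenes. Ncoa4, the receptor for ferritin autophagy (2.84 and 5.68 against 8.42 and 7.26), and the zinc exporter Slc30a1 (13.1 and 10.8 against 20.98 and 17.3) were higher. Only Slc30a1 was at that level without Model replicate 1, where Mt1, Ftl1 and Ncoa4 had log2 fold changes of -0.85, -0.73 and 0.40. In the pentose phosphate and glycolysis list, Pgls, the 6-phosphogluconolactonase, was 3.84-fold lower (8.48 and 5.62 against 1.32 and 2.35, log2 fold change -1.51 ± 0.28, adjusted p = 0.263) and the lactate exporter Slc16a3 was lower too (log2 fold change -0.64, and -0.37 and no longer at p under 0.05 after GC correction), with none of 29 higher at p under 0.05. Of 24 hypoxia-responsive genes, 2 were higher at that level, Vegfa and the demethylase Kdm3a (3.14 and 4.85 against 6.29 and 6.39, log2 fold change 0.58 ± 0.24, adjusted p = 0.560), and 1 was lower, the prolyl hydroxylase Egln2 (9.72 and 9.98 against 6.17 and 6.24, log2 fold change -0.59 ± 0.20, adjusted p = 0.470). Egln2 exons are 62.2% GC and its log2 fold change was -0.04 after GC correction. Kdm3a lost its call after GC correction (0.48) and without Model replicate 1 (0.33). The NADPH oxidase subunit Cyba was lower (785 and 419 against 198 and 292, log2 fold change -1.25 ± 0.43, adjusted p = 0.470), but at p under 0.05 neither after GC correction (-0.85) nor without Model replicate 1 (-0.80).

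Genes of protein folding stress leaned upwards. Of 28 unfolded protein and integrated stress response genes, 20 were higher and 14 were separated upwards. Of all genes tested, 51.8% were higher, 21.5% were separated upwards and 2.85% were higher at p under 0.05. The list's median log2 fold change was 0.21 (0.13 without Model replicate 1). Manf, a secreted endoplasmic reticulum chaperone (5.67 and 3.99 against 9.01 and 7.72 FPKM, log2 fold change 0.70 ± 0.24, adjusted p = 0.480), and Ddit3, which encodes CHOP (1.94 and 2.98 against 5.10 and 4.10, log2 fold change 0.70 ± 0.28, adjusted p = 0.535), were at p under 0.05, and none was lower at that level. Among 27 heat shock chaperone genes the cochaperone Stip1 was higher (21.3 and 26.2 against 40.7 and 38.7, log2 fold change 0.72 ± 0.25, adjusted p = 0.479) and the HSP70 nucleotide exchange factor Hspbp1 was lower (24.5 and 17.5 against 4.55 and 9.47, log2 fold change -1.51 ± 0.35, adjusted p = 0.359). Ddit3 and Stip1 were not at p under 0.05 without Model replicate 1 (0.49 and 0.58), nor was Ddit3 after GC correction (0.61).

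Among housekeeping genes, cytosolic ribosomal protein genes were lower about as often as genes in general, 5 of 80 at p under 0.05 beside 5.86% of all, and 1 was higher. Rps14 had 552 and 246 FPKM in Model and 55.1 and 107 in MUS (4.92-fold lower, log2 fold change -2.25 ± 0.51, adjusted p = 0.350) and Rps19 86.4 and 41.6 against 13.7 and 22.6 (log2 fold change -1.71 ± 0.46, adjusted p = 0.393). The list's median was -0.13, and 0.28 without Model replicate 1, so its direction depended on that library. Without it 1 gene was lower and 8 were higher at p under 0.05, and Rps19 was no longer at that level. The exception upwards was Rpl7a, at 1.67 and 2.90 in Model and 18.1 and 28.6 in MUS (10.2-fold, log2 fold change 2.88 ± 0.37, adjusted p = 0.186) and 21.1 and 11.6 in Control. A share of 37.9% of its stretches occurs elsewhere, mostly in pseudogenes such as Rpl7a-ps11, so how shared reads were assigned affects its level.

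The α-tubulins were lower together. Tuba1a had 11.6 and 8.38 FPKM in Model and 1.32 and 2.01 in MUS (5.99-fold lower, log2 fold change -2.04 ± 0.25 (SE), adjusted p = 0.186), the smallest p of any protein-coding gene. Tuba1c (87.7 and 62.3 against 26.9 and 33.3, log2 fold change -1.28 ± 0.32, adjusted p = 0.368) and Tuba1b (119.9 and 88.3 against 41.3 and 60.8, log2 fold change -1.02 ± 0.35, adjusted p = 0.468) followed. These 3 genes share 52.7% to 72.9% of their stretches, chiefly with one another, so they are not 3 independent observations. Of 29 tubulin and actin genes, 4 were lower, with Coro1a the other one (log2 fold change -0.98), and none higher at p under 0.05. Tuba1b and Coro1a were not at that level without Model replicate 1.

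Lysosomal and trafficking genes contributed Lamtor1 of the Ragulator complex (30.8 and 18.6 against 8.29 and 11.9 FPKM, log2 fold change -1.19 ± 0.34, adjusted p = 0.426), the proton pump subunit Atp6v0b (264 and 127 against 57.7 and 85.8, log2 fold change -1.37 ± 0.45, adjusted p = 0.455) and the protease Ctsd (2472 and 1249 against 584 and 839, log2 fold change -1.33 ± 0.48, adjusted p = 0.491). With Cd63, 4 of 62 lysosome genes were lower and none higher at that level, a share near that of all genes, and none of the 4 was at p under 0.05 without Model replicate 1 (log2 fold changes -0.84, -0.85, -0.83 and -0.72). Among 41 Rab and Arf GTPases, 5 were lower (Arf5, Rab1b, Rab8a, Rab5c and Arf3) and 2 higher (Arl5b and Rab7b), but without Model replicate 1 only Rab1b was at that level. The conjugating enzyme Ube2s, a partner of the anaphase-promoting complex, was lower (15.97 and 10.9 against 4.75 and 5.77, log2 fold change -1.19 ± 0.30, adjusted p = 0.368), though it overlaps Rpl28. Of 40 proteasome genes none was at p under 0.05 in limma's test. Of 24 apoptosis and survival genes, 13 were higher, 3 were lower at p under 0.05, and the median log2 fold change was 0.11. The pro-death BCL2 family genes Bad (5.65 and 3.51 against 1.09 and 1.84), Bak1 and Bax were lower (log2 fold changes -1.17, -1.03 and -0.74), of which only Bad was at that level after GC correction (-0.88, -0.74 and -0.11) and without Model replicate 1. Cdkn2d, an inhibitor of CDK4 and CDK6, had 7.74 and 5.74 against 1.60 and 2.15 (3.60-fold lower, log2 fold change -1.42 ± 0.26, adjusted p = 0.257).

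Smaller lists added single genes. In cholesterol metabolism, 3 of 33 genes were lower (Nr1h2, which encodes LXRβ, Mvd and Tmem86a, log2 fold changes -0.97, -0.87 and -0.72) and 1 higher, the LXR target Lpcat3 (0.59). None of the 4 was at p under 0.05 without Model replicate 1, and none of the 3 lower genes was after GC correction (-0.51, -0.48 and -0.44). Of 15 prostaglandin and leukotriene genes, only Ptgis, prostacyclin synthase, was at p under 0.05 (log2 fold change -0.59), and not so after GC correction (-0.32) or without Model replicate 1 (-0.43). Ptgs2, which encodes COX-2, had 2494 and 1976 FPKM in Model and 2272 and 1766 in MUS (log2 fold change -0.15 ± 1.16, adjusted p = 0.986).

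**Figure D4:**
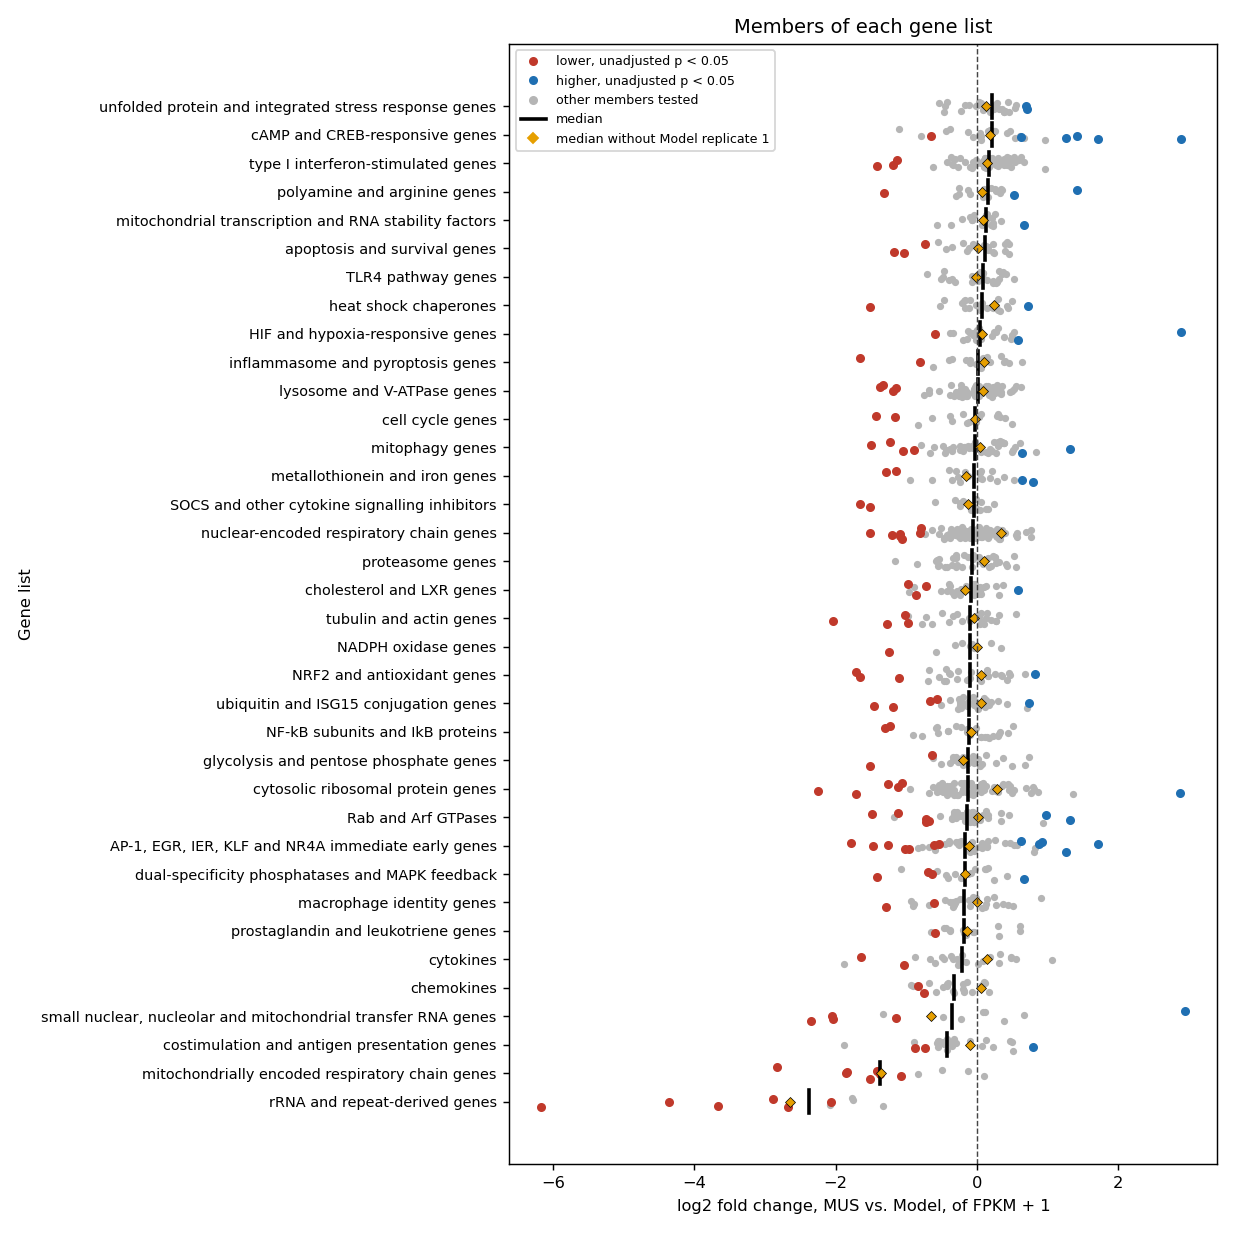
Log2 fold change (MUS vs. Model, of FPKM + 1) of every tested member of 36 gene lists, 1 row per list ordered by median; red and blue points are genes at an unadjusted p under 0.05, black bars are medians and orange diamonds medians without Model replicate 1. The rRNA and mitochondrially encoded lists stay far below 0 with and without that library (medians -2.38 and -1.38), while the bars of most other lists lie within 0.25 of 0.

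Direction went with base composition. Genes lower at p under 0.05 had a median exon GC content of 56.1% and genes higher 47.0%, against 48.7% for all genes tested. At 60% GC or more, 75 genes were lower and 3 higher, and of 1458 genes at 55 to 60%, 255 were lower and 12 higher. Below 40% GC, 15 of 723 were lower and 29 higher. Across genes, which are not independent replicates, Spearman's rho of fold change with GC content was -0.34. The same correlation was -0.55 for the difference between the 2 MUS libraries, which have the same treatment. The part of GC content in the result was not tested. After a loess correction of each library on GC content, 343 of the 559 lower and 213 of the 272 higher genes were still at p under 0.05 in the same direction.

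A few protein-coding genes lay against that gradient. At 55% GC or more, 9 of 1570 protein-coding genes were higher at p under 0.05, all without overlap, beside 304 lower. They were Nr4a1, Gstp1, Dusp5, Irs2, Pfdn6, Etfb, Taf6, Eif3g and Rrp7a, listed after their values were seen. Dusp5, Irs2, Taf6 and Rrp7a were not at that level without Model replicate 1. Irs2, the insulin receptor substrate and a known CREB target, had 11.4 and 12.6 FPKM in Model and 23.3 and 19.1 in MUS (log2 fold change 0.77 ± 0.31, adjusted p = 0.553). Below 45% GC, 14 of 2393 were lower beside 38 higher, and 7 of those 14 were the mitochondrially encoded genes described above. The others included the mitochondrial ribosomal proteins Mrpl16 (23.1 and 13.7 against 8.31 and 10.4) and Mrpl57 (4.22 and 3.10 against 1.81 and 1.83), neither at p under 0.05 without Model replicate 1. Near the middle of the range, Vegfa (50.9% GC), Odc1 (52.4%) and Txnip (48.3%) had log2 fold changes of 2.88, 1.47 and -1.72 after the correction, within 0.1 of the uncorrected values.

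**Figure D5:**
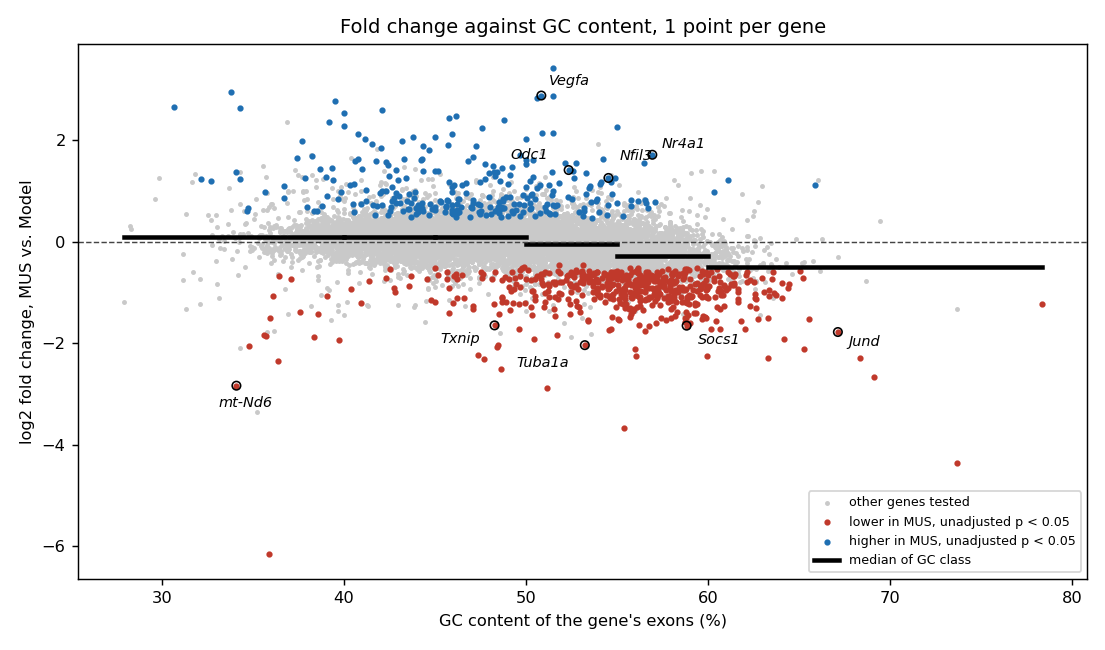
Log2 fold change (MUS vs. Model) of each gene tested against the GC content of its exons in percent, with genes at an unadjusted p under 0.05 in red (lower) and blue (higher), the median of each GC class as a black bar, and 9 genes circled and named. The class medians fall from 0.10 at 40 to 50% GC to -0.49 at 60% and above; Nr4a1 is high and mt-Nd6 low against that slope.

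Small nuclear RNA, small nucleolar RNA and antisense genes leaned upwards, but not without Model replicate 1. The median log2 fold changes were 0.85 for 54 small nuclear RNA genes, 0.62 for 90 small nucleolar RNA genes and 0.33 for 111 antisense genes, and were 0.00, 0.06 and 0.04 without Model replicate 1. Processed pseudogenes, the largest non-coding class with 514 genes, had a median of -0.03. Across all genes tested, Spearman's rho of fold change with gene length was 0.22, but the relation did not run one way. The longest class of genes (median length 6350.5 bases) had a median log2 fold change of 0.09. Classes with median lengths of 607.5, 1543.5 and 2992.5 bases had -0.05, -0.15 and -0.08. The shortest class (median length 110 bases) had 0.27, with 208 of 351 genes higher, and 0.00 without Model replicate 1. Genes higher at p under 0.05 had a median length of 1796 bases and lower ones 2298. The rho with length was -0.397 for Model replicate 1 minus Model replicate 2, which have the same treatment. The highest values under the naming rule were mostly those of non-coding genes. Mir1957a, inside Slc2a1, had 0 and 10 fragments in Model and 29 and 43 in MUS, and Gm23369, inside St6galnac4, 0 and 3 against 10 and 21. In the other direction, Mir23b, a microRNA hairpin inside a longer transcript, had 11 and 15 fragments in Model and 1 and 2 in MUS. Libraries of this kind read the precursor transcript and not the mature microRNA. Among protein-coding genes the lowest values outside the lists were those of Scand1, a SCAN domain protein (39.4 and 17.3 against 2.70 and 7.30 FPKM, 5.67-fold lower, log2 fold change -2.30 ± 0.51, adjusted p = 0.350), and Rabac1, a prenylated Rab acceptor (55.1 and 29.5 against 4.08 and 13.99, 4.68-fold lower, log2 fold change -2.24 ± 0.55, adjusted p = 0.368). Scand1 exons are 68.4% GC.

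Few markers of other peritoneal cells passed the filter, but some that did were well expressed. Of 8 B cell, 12 T and innate lymphocyte, 10 neutrophil, 9 eosinophil, 8 mast cell, 10 mesothelial and fibroblast, 5 erythrocyte and 7 dendritic cell markers, 1, 2, 3, 2, 0, 5, 0 and 1 reached the filter. The neutrophil-associated S100a8 had 109.96 and 56.5 FPKM in Model and 63.97 and 50.3 in MUS. Csf3r, the G-CSF receptor, had 46.3 and 72.03 against 52.05 and 64.7, and Il7r, the IL-7 receptor, 73.2 and 106 against 123 and 126. None of these 3 was at p under 0.05. S100a9, Ly6g, Retnlg, Epx and Prg2 were listed at 0 in all 6 libraries. A listed 0 for S100a9 beside the level of S100a8, its usual partner, may not be a measured absence, so how far other cells were present was not settled. Ear2, an eosinophil-associated ribonuclease, was the only marker at p under 0.05, and it was higher (2.66 and 1.89 against 4.42 and 3.77 FPKM, log2 fold change 0.64 ± 0.24, adjusted p = 0.504), but not at that level after GC correction (0.55).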

How the data were processed

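Poly(A) mRNA libraries of 6 samples (Control, Model and MUS, 2 each) were analysed from 1 table of FPKM values made by the authors and deposited for all genes. Sources differ on how it was made: the study's methods name RSEM, the submitters' processing notes name HISAT2, featureCounts 1.5.0-p3 and GRCm39, while 98.3% of 54495 gene positions match GENCODE M21 on GRCm38. No strand setting is given in the sources used here. FPKM times gene length gave whole multiples of 1 step (tolerance 0.1) for all values, which gave the fragments per gene. At these depths 3 fragments on a gene of 1 kb are 0.185 to 0.213 FPKM, and such floors cover counting error only.

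Genes with a mean of at least 1 FPKM in Model and MUS were fitted with limma 3.58.1 (R 4.3.3; linear model of 3 groups, moderated with a trend, two-sided) as log2(FPKM + 1), contrast MUS vs. Model, with Benjamini-Hochberg adjustment over all 9547 genes. The fit was tested on simulated data. The labels give the replicate number as a batch, so same-numbered libraries may be paired, which the sources do not state. The main fit did not use such a pairing, and the replicate block did. Deviations of same-numbered libraries correlated at 0.137 between Model and MUS, 0.125 between Control and Model and -0.09 between Control and MUS. Alternatives were the replicate block, the 4 libraries alone, other filters, pseudocounts, scalings, corrections for GC content and length, voom on the fragments and leaving out each library.

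The genes and lists were chosen with earlier results of these data known. Named genes are the 10 highest and 10 lowest fold changes at an unadjusted p under 0.05, without overlap and at a mean of at least 5 FPKM, the DEGs of any of the block or 4-library fits, the 6 list members with the smallest p and other list members for contrast. Shared sequence was counted in stretches of 50 bases. Such shares, and overlaps with other genes, are not given here for every named gene. Promoter sequences are from RefSeq.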

Additional observations from a re-analysis of the deposited data

How the results depend on the processing

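The count of DEGs was 0 with limma and in 11 other planned fits over all 6 libraries or the 4 alone. Among these were voom and the GC correction, the latter both alone and with the replicate block. It was 1 with a pseudocount of 0.1, 1 with the gene-length correction and 1 with the GC and gene-length correction. The replicate block gave 4 DEGs over 6 libraries and 28 over the 4, and the block moved no other count by over 1.5 times except the higher genes over the 4 libraries (421). With each library left out in turn the DEGs ranged from 0 to 46, the genes lower at an unadjusted p under 0.05 from 136 to 926 and the higher ones from 99 to 951. The extremes were without Model replicate 2 (46, 926 and 951, so that higher genes outnumbered lower ones) and without MUS replicate 1 (0, 136 and 99). Without Model replicate 1 there were 321 lower and 220 higher genes, of which 227 and 105 were among the 559 and 272, and without MUS replicate 2 there were 463 and 147. Without Control replicate 2 there were 2 DEGs. No filter on low values gave 858 lower and 579 higher genes and a minimum of 5 FPKM 315 and 134, as more or fewer genes were tested. Rescaling without the mitochondrial and top 20 genes moved the median log2 fold change of all genes to 0.09 and gave 416 lower and 288 higher. Of 2 alternatives chosen after seeing the data, testing only protein-coding genes gave 571 and 170, and requiring 10 fragments in every library 587 and 214. Both gave 0 DEGs. The cause of the other shifts was not tested. Of the 38 list medians, 12 changed sign without Model replicate 1 and 5 without Model replicate 2. With 2 libraries a group, depth is not the only limit on genes of few fragments.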

Other observations

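Some genes outside the lists, looked at after their values were seen, also differed. Crlf2, the receptor chain for TSLP, had 103.9 and 83.8 FPKM in Model, 25.9 and 38.9 in MUS and 92.3 and 92.9 in Control (log2 fold change -1.52 ± 0.32 (SE), adjusted p = 0.32). Il3ra, the α chain of the IL-3 receptor, had 39.5 and 23.6 in Model and 5.22 and 13.7 in MUS (-1.72 ± 0.45). Both have GC-rich exons (65.6% and 60.7%), and after GC correction the differences were -0.79 and -1.25. Without Model replicate 1 they were -1.37 and -1.36, and Il3ra lost its call. Ptms, which encodes parathymosin, had 60.53 and 31.7 in Model and 6.62 and 13.2 in MUS (-2.11 ± 0.51, and -1.39 after GC correction). In the other direction, Fem1c, a substrate receptor of a cullin ubiquitin ligase, had 25.3 and 25.7 in Model, 57.7 and 44.5 in MUS and 27.3 and 23.8 in Control (0.96 ± 0.27, and 0.87 after GC correction). Its exons are 42.0% GC.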
